A study of Mus musculus with 12 samples.

Results

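The genes described here form the core of the pathway by which a cell senses DNA in its cytosol: Cgas, Sting1, Tbk1, Irf3 and Trex1. They were put together by function, from a proposal made with results of these arrays in view, so the values that chose the 5 genes are the same log2 signals reported below. Each was read by 1 probe set annotated to that symbol only, and together they are 5 of 19938 genes with such a probe set. All 5 passed the filter on low signals, which kept 12980 genes. Because the members were chosen on these arrays, their differences are descriptions and carry no test.

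RNA came from spleen cells of 3-month-old mice that were sorted as positive for the erythroid marker Ter119 with high CD71, the transferrin receptor of erythroblasts. Of the 12 arrays, 3 were labelled wild type (WT), 3 knockout of E2f8 (E2f8 KO), 3 knockout of Rb (Rb KO) and 3 knockout of both (DKO), each called a biological replicate. The retinoblastoma protein, from Rb1, holds E2F transcription factors in check, while E2f8 encodes an E2F protein that represses its targets. The sources used here do not give how or in which cells the alleles were deleted, or the sex of the mice.

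The group names are the labels of the arrays, and Rb1 and E2f8 signals went against them in places. Rb1 signal was 12.33 to 12.53 in the arrays labelled Rb KO and lower, 11.68 to 11.74, in those labelled E2f8 KO, against 12.71 to 13.02 in WT. E2f8 signal was higher in the arrays labelled E2f8 KO (12.74 to 12.89) than in WT (11.70 to 12.28), and higher still in those labelled DKO (13.09 to 13.17), where Rb1 was 11.98 to 12.23. Probe positions were not given, so whether the probes lie in the deleted parts is not known, and every direction below is one between labels. Replicates correlated across genes with Pearson's r of 0.920 to 0.992, the lowest in Rb KO. Erythroid markers were near the top of the scale in every array (Slc4a1, the red cell anion exchanger, 14.05 to 14.25), and markers of other blood cells were also present, at levels that moved with the labels as given beside the results they touch. Xist, which is made from the inactive X chromosome of females, was low in E2f8 KO replicate 3 (5.22) and DKO replicate 3 (3.99). Differences were fitted for all genes with limma on the log2 signals, with Benjamini-Hochberg adjustment, and a gene counts as called where its adjusted p is below 0.05.

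Cgas, also known as Mb21d1, encodes the enzyme that binds double-stranded DNA in the cytosol and makes a cyclic dinucleotide. That messenger binds STING, the protein of Sting1, in the endoplasmic reticulum, and STING then moves to the Golgi and gathers the kinase TBK1. TBK1 phosphorylates the transcription factor IRF3, which enters the nucleus and switches on interferon beta and related genes. Trex1 encodes an exonuclease that degrades DNA in the cytosol and so limits the signal. Red cell precursors condense and expel their nucleus as they mature. Macrophages digest the expelled nuclei, and loss of the lysosomal DNase that does so is known to set off this pathway in blood-forming tissue.

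The table of RefSeq promoter windows held 4 of the 5 members, all but Sting1, each window running from 250 bases before the start site to 50 after it on build GRCm38.p6. The windows of Cgas (chr9:78443188-78443487, minus strand) and Tbk1 (chr10:121586745-121587044, minus strand) are shown because these 2 genes were both highest in the DKO arrays. Capitals mark the matches of the motifs searched, and the Cgas window had none.
Cgas: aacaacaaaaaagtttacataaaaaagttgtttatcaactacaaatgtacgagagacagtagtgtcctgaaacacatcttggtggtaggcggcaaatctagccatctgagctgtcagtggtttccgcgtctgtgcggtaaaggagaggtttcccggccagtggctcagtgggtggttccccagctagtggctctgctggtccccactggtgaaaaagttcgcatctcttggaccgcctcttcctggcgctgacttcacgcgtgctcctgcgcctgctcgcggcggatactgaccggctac
Tbk1: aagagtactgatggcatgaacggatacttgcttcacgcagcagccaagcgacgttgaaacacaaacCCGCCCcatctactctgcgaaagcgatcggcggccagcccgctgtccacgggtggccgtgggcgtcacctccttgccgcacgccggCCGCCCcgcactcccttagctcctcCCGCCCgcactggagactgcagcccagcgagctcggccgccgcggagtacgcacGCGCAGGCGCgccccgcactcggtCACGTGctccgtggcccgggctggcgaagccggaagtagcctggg
The search covered both strands for 3 E2F sites (TTTCCCGC, TTTGGCGC and TTTCGCGC) and the core of the interferon-stimulated response element (GAAA, any 2 bases, GAAA). The GC box GGGCGG, the E-box CACGTG, the NRF1 site by its consensus and, apart from these, the sequence CCAAT were added later. No member's window held an E2F site or the interferon element, which only says that these letters are not in these windows. The E2F sites were in 1.07%, 0.514% and 0.323% of all 32851 windows and the interferon element in 3.44%. The Tbk1 window held 3 GC boxes (35.7% of all windows hold at least 1), an E-box (7.15%) and an NRF1 site (4.6%), and the Irf3 window and the second of 2 Trex1 windows held 1 GC box each. The GC content was 53% for Cgas and 69% for Tbk1, against a median of 52.7% over all windows.

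Cgas, the sensor, was high in the DKO arrays alone. Its log2 signal was 5.40, 5.36 and 5.22 in the WT arrays, 5.32, 6.03 and 5.80 with the E2f8 KO label, 6.42, 5.62 and 5.37 with the Rb KO label, and 7.49, 8.51 and 8.46 with the DKO label. Every DKO array lay above all 9 others, and the other 3 groups overlapped in part. The WT mean was 5.32 ± 0.09 (SD, n = 3). The E2f8 KO mean was 5.72 ± 0.36, the Rb KO mean 5.80 ± 0.55 and the DKO mean 8.15 ± 0.58, an order in which the step to DKO was the largest. In 7 of the 12 arrays, all 3 WT arrays among them, Cgas lay below the level of the filter on low signals, 5.84, and the gene passed the filter through its DKO signal. The measured difference DKO minus WT was 2.83 ± 0.30 (SE), against Rb KO it was 2.35 ± 0.30 and against E2f8 KO 2.43 ± 0.30. Since the signals on the lower side are mostly below that level, no fold and no rank among all genes is given for them. The differences E2f8 KO minus WT (0.39 ± 0.30) and Rb KO minus WT (0.48 ± 0.30) were similar in size to the SD of those KO groups, 0.36 and 0.55. Rb KO replicate 1 alone stood above the WT arrays by more than 1.0 on the log2 scale.

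**Figure D1:**
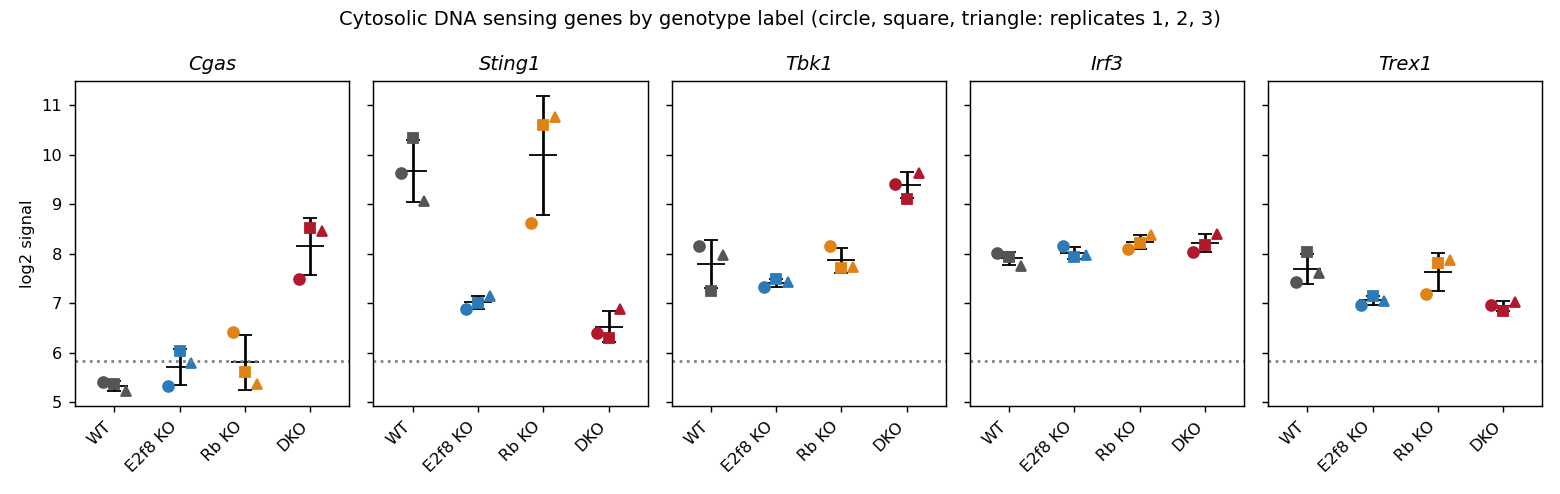
Log2 signal of the 5 genes (one panel each, shared vertical axis) in the 12 arrays by genotype label. Points are arrays, horizontal bars group means with SD (n = 3), and the dotted line is the filter level of 5.84. Cgas and Tbk1 are highest in all 3 DKO arrays, Sting1 is low in E2f8 KO and DKO, and Irf3 stays between 7.75 and 8.40. Levels of different genes come from different probes and are not comparable.

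Sting1, the receptor of the Cgas product, ran the other way. It read 9.62, 10.33 and 9.07 (log2) in the WT arrays, 8.61, 10.59 and 10.77 in the Rb KO arrays, 6.89, 7.01 and 7.15 in the E2f8 KO arrays, and 6.39, 6.30 and 6.89 in the DKO arrays. The arrays formed 2 ranges, WT and Rb KO at 8.61 or above and E2f8 KO and DKO at 7.15 or below, with no array between. From high to low, the means were 9.99 ± 1.20 (SD, n = 3) for Rb KO, 9.67 ± 0.63 for WT, 7.01 ± 0.13 for E2f8 KO and 6.53 ± 0.32 for DKO. The first 2 and the last 2 of this order overlapped. Sting1 differed by -2.66 ± 0.47 (SE) in E2f8 KO minus WT, 6.31-fold lower, and 0.562% of genes had a difference as low. In DKO minus WT it differed by -3.15 ± 0.47 (8.85-fold lower) and in DKO minus Rb KO by -3.46 ± 0.47 (11-fold lower). Between Rb KO and WT (0.31 ± 0.47) and between DKO and E2f8 KO (-0.49 ± 0.47) the arrays overlapped. In sorted bulk cells, fewer cells of a type that makes a transcript and less of the transcript per cell cannot be told apart.

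The Sting1 signal moved with markers of B cells, array by array. The B cell list had 17 of 18 genes measured, meaning that their mean over the 12 arrays passed the filter on low signals. Signals in single arrays may lie below that level. The mean log2 signal of the list was 10.47 to 11.91 for WT and 9.86 to 11.98 for Rb KO. It was 7.99 to 8.37 for E2f8 KO and 6.37 to 7.51 for DKO. Rb KO replicate 1, which had the lowest Sting1 signal of its group (8.61), also had the lowest B cell mean of its group (9.86, against 11.98 and 11.93). Among defining B cell genes, Cd79b, a chain of the B cell receptor, averaged 12.60 in WT and 12.77 in Rb KO against 9.23 in E2f8 KO and 7.89 in DKO, and Cd74, the invariant chain of MHC class II, averaged 13.13, 13.21, 10.93 and 8.59 in the same order. All 17 measured B cell genes were called lower in DKO minus WT (17.6% of all genes) and 16 of 17 in E2f8 KO minus WT (14.2%). The macrophage and monocyte list (19 of 22 measured) had means of 9.17 to 9.91 in WT and 8.67 to 8.96 in Rb KO against 8.34 to 8.46 in E2f8 KO and 7.35 to 7.94 in DKO. T and NK cell markers (9 of 14 measured) ran from 7.21 to 8.33 in WT and Rb KO and from 6.00 to 6.50 in E2f8 KO and DKO, and dendritic cell markers (9 of 12 measured) from 7.36 to 8.21 and from 6.15 to 6.71. Granulocyte markers (15 of 17 measured) went the other way, 6.30 to 6.45 in WT and 6.82 to 6.89 in Rb KO against 8.11 to 8.56 in E2f8 KO and 6.83, 7.98 and 10.21 in the DKO replicates. The erythroid list (16 of 18 measured) had means of 12.39 to 12.63 in WT and 11.97 to 12.66 in Rb KO. In E2f8 KO they were 12.63 to 12.81 and in DKO 12.71 to 12.72. Of its 16 genes, 8 were called higher and 2 lower in DKO minus Rb KO (19.5% and 17.6% of all genes). In DKO minus WT these were 4 and 2 (20.6% and 17.6%), and in E2f8 KO minus WT also 4 and 2 (11.9% and 14.2%). The platelet list (6 of 10 measured) was at 7.28 to 7.58. The part that other cells in the sort had in the Sting1 difference was not tested.

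**Figure D2:**
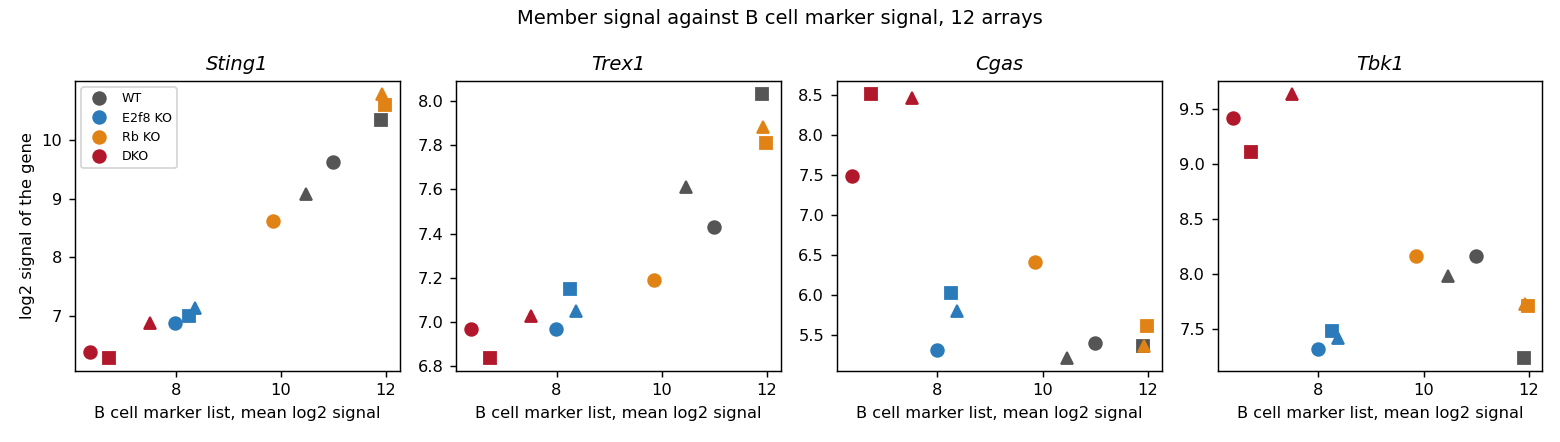
Log2 signal of Sting1, Trex1, Cgas and Tbk1 (vertical axes, a scale each) against the mean log2 signal of the B cell marker list (horizontal axis) in the 12 arrays, coloured by genotype label, with circles, squares and triangles for replicates 1, 2 and 3. Sting1 and Trex1 are low where B cell signal is low, while Cgas and Tbk1 are high in DKO (B cell mean 6.37 to 7.51) and not in E2f8 KO (7.99 to 8.37).

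Tbk1, the kinase, was again highest in DKO. The WT arrays gave a log2 signal of 8.16, 7.24 and 7.98, the E2f8 KO arrays 7.32, 7.48 and 7.42, the Rb KO arrays 8.16, 7.71 and 7.73, and the DKO arrays 9.41, 9.11 and 9.63. All 3 DKO arrays lay above all 9 others, among which the WT group spanned the E2f8 KO values. From low to high, the means were 7.41 ± 0.08 (SD, n = 3) for E2f8 KO, 7.79 ± 0.48 for WT, 7.87 ± 0.25 for Rb KO and 9.38 ± 0.26 for DKO. The difference was 1.59 ± 0.24 (SE) in DKO minus WT, 3.01-fold, 1.51 ± 0.24 in DKO minus Rb KO and 1.98 ± 0.24 in DKO minus E2f8 KO. A difference as high was found in 2.27%, 2.08% and 0.1% of all genes. The low value of WT replicate 2, the WT array with the most B cell signal (11.91), pulled the WT mean down, and without it DKO minus WT was 1.31. Cgas and Tbk1 were high in DKO, where the B cell list mean was 6.37 to 7.51 and the macrophage list mean 7.35 to 7.94, and overlapped WT in E2f8 KO, where these were 7.99 to 8.37 and 8.34 to 8.46. The part of cell makeup in these differences was not tested.

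Irf3, the transcription factor that TBK1 phosphorylates, hardly varied. The WT arrays read 8.02, 7.94 and 7.75 (log2), the E2f8 KO arrays 8.16, 7.93 and 7.97, the Rb KO arrays 8.10, 8.21 and 8.38, and the DKO arrays 8.04, 8.18 and 8.40. The Rb KO and DKO arrays lay just above WT, with gaps of hundredths on the log2 scale (2.25% of all genes lay wholly above WT in Rb KO and 24.5% in DKO), and E2f8 KO overlapped all groups. The group means ran from 7.91 ± 0.14 (SD, n = 3) in WT to 8.23 ± 0.14 in Rb KO. The largest of its differences, Rb KO minus WT, was 0.32 ± 0.16 (SE), and in DKO minus WT it was 0.30 ± 0.16. Transcript level is a limited readout here, since IRF3 is switched on by phosphorylation, which arrays do not measure.

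Trex1, the exonuclease that limits the signal, followed Sting1 in a narrower range. Log2 signals were 7.43, 8.03 and 7.61 for WT, 6.97, 7.15 and 7.05 for E2f8 KO, 7.19, 7.81 and 7.88 for Rb KO, and 6.97, 6.84 and 7.03 for DKO. The E2f8 KO and DKO arrays all lay below the WT and Rb KO arrays, the nearest pair being 7.15 and 7.19. Means were 7.69 ± 0.31 (SD, n = 3) for WT, 7.63 ± 0.38 for Rb KO, 7.06 ± 0.09 for E2f8 KO and 6.95 ± 0.10 for DKO. Trex1 differed by -0.63 ± 0.20 (SE) in E2f8 KO minus WT, by -0.74 ± 0.20 in DKO minus WT (1.68-fold lower) and by -0.68 ± 0.20 in DKO minus Rb KO. Differences as low were common, at 14.3%, 13.2% and 14.1% of all genes. Without WT replicate 2 the E2f8 KO difference was -0.46 and the DKO difference -0.57, and neither was called. The E2f8 KO call was also lost without any 1 of the E2f8 KO arrays (-0.59 to -0.68), and that of DKO minus Rb KO without Rb KO replicate 2 or 3 or DKO replicate 2 (-0.56 to -0.63). As for Sting1, the lowest Rb KO array was replicate 1, the one with the least B cell signal in its group, and what other cells contributed was not tested. RefSeq also lists a readthrough gene that joins Trex1 to its neighbour Atrip, so the probe set may read both.

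**Figure D3:**
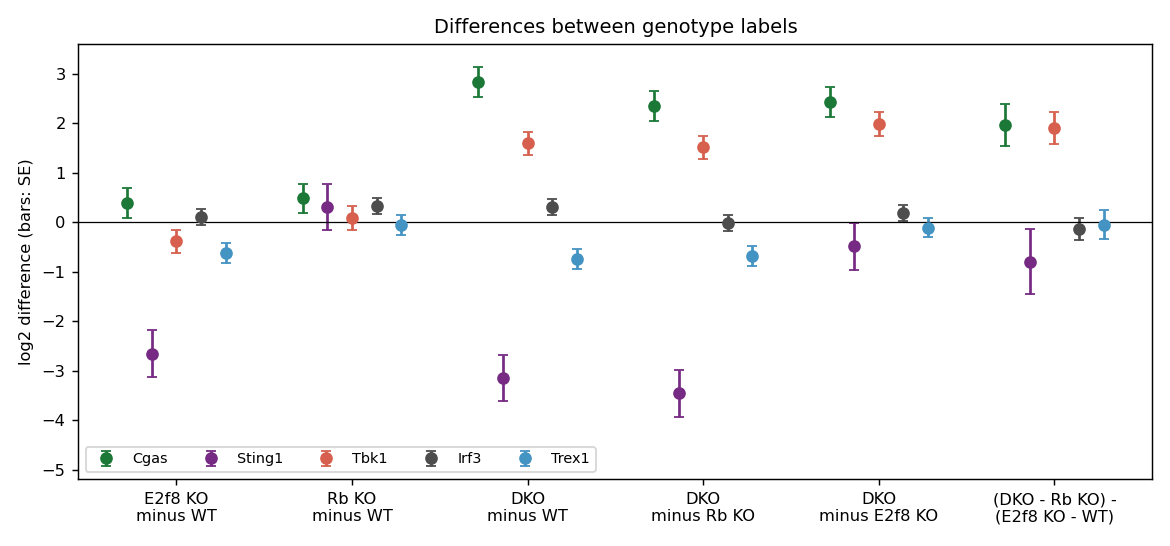
Log2 differences of the 5 genes in the 6 comparisons, with bars for the SE of the all-gene fit (3 arrays a group). Cgas and Tbk1 are above 1.5 in each comparison of DKO with another group, Sting1 lies between -2.66 and -3.46 in E2f8 KO minus WT, DKO minus WT and DKO minus Rb KO, and Irf3 lies near 0 throughout.

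The shares of all genes called put these values in context. In E2f8 KO minus WT, 11.9% of the 12980 genes were called higher and 14.2% lower, and of the members 0 were called higher and 2 lower, Sting1 and Trex1. In Rb KO minus WT, 0% of genes were called higher and 0.0077%, a single gene, lower, with no member among them. At an unadjusted p under 0.05, 133 genes were higher and 464 lower there. In DKO minus WT, 20.6% of genes were called higher and 17.6% lower, with 2 members each way (Cgas and Tbk1 higher, Sting1 and Trex1 lower). The same members were called in DKO minus Rb KO, where 19.5% and 17.6% of all genes were. In DKO minus E2f8 KO, 1.73% of genes were called higher and 0.647% lower, and Cgas and Tbk1 were the 2 members called, both higher. Since the members were chosen on these signals, nothing is read from their counts or from their calls. Cgas also entered the fit only through its DKO signal. These 5 comparisons share groups: WT enters 3 of them and DKO 3. Groups that do not overlap were common among all genes. Every array of the first group lay above every array of the second in 22.3% and below in 23.5% of genes for E2f8 KO against WT, in 24.5% and 21.4% for DKO against WT, in 23.2% and 20.4% for DKO against Rb KO, and in 18.1% and 17.0% for DKO against E2f8 KO. For Rb KO against WT the shares were 2.25% and 4.03%. Without both arrays with low Xist, Cgas (2.68), Tbk1 (1.47) and Sting1 (-3.33) differed from WT in DKO by values close to those above, and Trex1 (-0.63) was no longer called in E2f8 KO minus WT.

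The effect of the E2f8 label was also set against itself in both Rb backgrounds, as the difference of DKO minus Rb KO from E2f8 KO minus WT. It was 1.96 ± 0.42 (SE) for Cgas, whose lower signals are mostly below the filter level, and 1.90 ± 0.33 for Tbk1. For Sting1 it was -0.80 ± 0.66, close in size to its error. For Irf3 it was -0.14 ± 0.23 and for Trex1 -0.05 ± 0.29, both smaller than their errors. Over all genes 0.0539% were called higher and 0.0231% lower in this interaction, and no member was called. Nothing is read from that count either, since the members were chosen on these signals. With 1 array left out at a time the values ran from 1.74 to 2.29 for Cgas and from 1.71 to 2.17 for Tbk1.

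**Figure D4:**
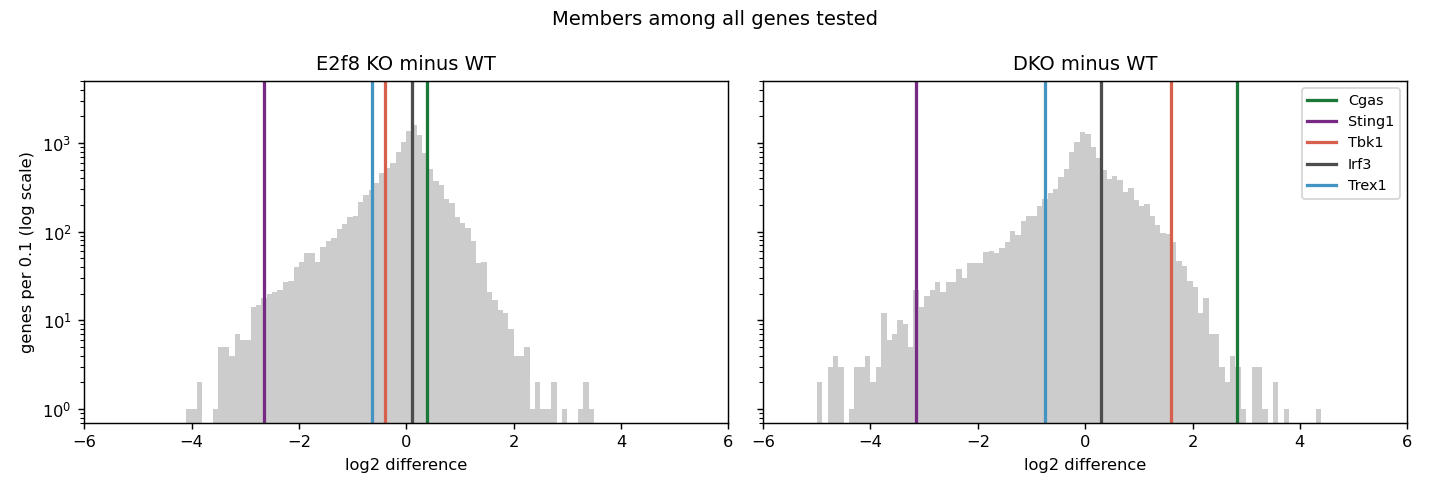
Number of genes (log axis, per 0.1 of log2 difference) by log2 difference over all 12980 genes tested, for E2f8 KO minus WT and DKO minus WT, with the 5 members as vertical lines. Sting1 lies in the lower tail both in E2f8 KO minus WT (-2.66) and in DKO minus WT (-3.15). The lines of Cgas are at 0.39 and 2.83. Its place among all genes is not read, since it passed the filter through its DKO signal.

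The highest r between members were those of Sting1 with Trex1 and of Cgas with Tbk1. Over the 12 arrays Sting1 and Trex1 had a Pearson's r of 0.95, and 0.89 after the group means were taken away, so they also moved together within groups. Cgas and Tbk1 had an r of 0.89 over the arrays and 0.26 of the deviations, so their likeness lies mostly between groups. Cgas was below the filter level in 7 of the 12 arrays, which limits its r of deviations. Across these pairs the r of deviations was -0.69 for Tbk1 and Trex1 and -0.55 for Sting1 and Tbk1. For Sting1 and Irf3 it was 0.56. These are descriptions of members chosen on these signals, over arrays that share groups and cell makeup. The genes most like Sting1 over the 12 arrays were Arid5b (r 0.998), Gpr18 (0.998), Tlr9 (0.997), Pou2af1 (0.997) and Mef2c (0.996), and all 5 kept an r of deviations of 0.983 or more. Pou2af1 is a B cell coactivator and Tlr9 a DNA receptor of B cells and dendritic cells. Trex1 was most like Spns2 (0.987), Dhdh (0.981), Tesk1 (0.979), A430078G23Rik (0.979) and Lncpint (0.977). Cgas was most like Sclt1 (0.980), Mad2l2 (0.979), Fam221a (0.977), Usp51 (0.976) and Car13 (0.971), and Tbk1 like Noct (0.951), Oard1 (0.949), Rad1 (0.936), Ubxn8 (0.931) and Armc6 (0.928). For Cgas and Tbk1 none of these was among the 5 most alike within groups. For Irf3 the highest r over the arrays was 0.817 (4933427D14Rik), followed by Ist1 (0.814), which also had the highest r of deviations (0.926).

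Single genes next to the members on the chromosome, with Sting1 left out, were read as a local comparison. They are outside the rule for named genes and count as chosen after their values were seen. Xpot, which encodes a tRNA exporter and is the neighbour of Tbk1, rose by 1.78 ± 0.19 (SE; limma adjusted p = 3.47e-05) in DKO minus WT, by 1.56 (0.000126) in DKO minus Rb KO and by 1.58 (0.000997) in DKO minus E2f8 KO. These differences were close in size to those of Tbk1. In E2f8 KO minus WT the signs were opposite, 0.20 ± 0.19 for Xpot and -0.39 ± 0.24 for Tbk1, and neither was called. Mto1, the neighbour of Cgas, differed by 0.36 ± 0.23 (limma adjusted p = 0.247) in DKO minus WT, against 2.83 for Cgas. Bcl2l12, whose start site lies 69 bases from that of Irf3 on the other strand, differed by 0.01 ± 0.15 (0.982). Atrip, the neighbour of Trex1, differed by 0.29 ± 0.16 (0.185), opposite in sign to Trex1.

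The other genes of the pathway were read from lists that were written with earlier results of these arrays known. Their counts are to be set beside the shares of all genes called. In DKO minus WT these were 20.6% higher and 17.6% lower. In E2f8 KO minus WT they were 11.9% and 14.2%, and in DKO minus Rb KO 19.5% and 17.6%. In DKO minus E2f8 KO they were 1.73% and 0.647%. In counts of list genes, rose and fell mean called higher and called lower. Of 25 other DNA sensors tested, 7 rose and 6 fell in DKO minus WT, with a median difference of 0.20 against 0.00 over all genes. Tlr9, the endosomal receptor for DNA, fell by 3.47 ± 0.52 (SE; limma adjusted p = 0.00028), from a mean of 10.59 in WT to 7.12 in DKO, and in E2f8 KO minus WT it fell by 2.84 (0.00292). Nbn and Mre11a, both of a complex that binds broken DNA, rose by 1.41 ± 0.26 (0.000945) and 1.16 ± 0.21 (0.000913), and Rad50, of the same complex, was not called (0.58 ± 0.28, 0.125). Polr3b, a subunit of RNA polymerase III, which can turn AT-rich DNA into RNA that is sensed, fell by 1.05 ± 0.16 (0.000372). Other subunits of that polymerase, outside the rule for named genes, did not fall with it. Polr3f was called higher (0.55 ± 0.19, 0.0386), and Polr3a (-0.07), Polr3c (0.26), Polr3d (0.10) and Polr3e (-0.10) were not called. Polr3b was also the sensor called in DKO minus E2f8 KO (-0.98 ± 0.16, 0.00836), with means of 8.11 in DKO and 9.08 in E2f8 KO. That call was lost without E2f8 KO replicate 1 (-0.90) or DKO replicate 3 (-0.87). In E2f8 KO minus WT, 4 of the 25 rose and 2 fell, and these 6 were 3 without WT replicate 2 or without any 1 of the E2f8 KO arrays.

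Of 15 tested nucleases and other enzymes that limit self nucleic acid, 4 rose and 5 fell in DKO minus WT (median 0.00) and 3 rose and 6 fell in E2f8 KO minus WT. Dnase1l3, a secreted nuclease of macrophages and dendritic cells, fell by 4.03 ± 0.36 (SE; limma adjusted p = 9.92e-06), from 10.35 to 6.32. The lysosomal exonucleases were also lower: Pld3 fell by 1.76 ± 0.14 (5.26e-06) and Pld4 fell by 3.34 ± 0.44 (0.00012). In DKO minus E2f8 KO Pld3 fell by 0.67 ± 0.14 (0.0306), a call lost without any 1 array of those labels or without Rb KO replicate 2 (-0.71 to -0.61). B cell, macrophage and dendritic cell markers, given above, were lower under the same labels as Tlr9, Dnase1l3, Pld3 and Pld4, and their part was not tested. Outside the rule for named genes, and chosen after their values were seen, are 2 subunits of RNase H2, which removes RNA from DNA hybrids: Rnaseh2a rose by 1.25 ± 0.24 (0.00146) and Rnaseh2b by 1.24 ± 0.24 (0.00136) in DKO minus WT. The other subunit, Rnaseh2c, differed by 0.12 ± 0.23 (0.745). Trex1 itself lies among the lower genes of this group, with a smaller difference than Dnase1l3 or Pld3.

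Of 31 tested genes of STING transport and turnover, 8 rose and 4 fell in DKO minus WT (median -0.06). Insig1, an endoplasmic reticulum protein that holds back sterol synthesis and aids STING ubiquitination, rose by 2.65 ± 0.19 (SE; limma adjusted p = 3.04e-06), from 8.29 to 10.94, and by 2.30 (4.94e-05) in E2f8 KO minus WT. Stim1, a calcium sensor that holds STING in the endoplasmic reticulum, rose by 1.46 ± 0.22 (0.000319), and Tmed2, a cargo receptor of vesicles, by 0.89 ± 0.12 (0.000149). The count of 12 called was 6 without WT replicate 2 and 7 without DKO replicate 3, and the count of 14 in DKO minus Rb KO was 7 without Rb KO replicate 2 or 3 and 9 without DKO replicate 1. Without both arrays with low Xist these counts were 6 and 8. Of 21 tested TBK1 partners and adaptors, 3 rose and 5 fell in DKO minus WT (median -0.04). Since 20.6% of all genes were called higher and 17.6% lower in that comparison, nothing is read from the counts of these lists. Among the TBK1 partners Gsk3b, a kinase, rose by 1.18 ± 0.16 (0.000139) and the chaperone Hsp90aa1 by 1.57 ± 0.23 (0.000264), while the autophagy receptor Tax1bp1 fell by 1.34 ± 0.17 (8.58e-05) and another, Sqstm1, fell by 0.74 ± 0.11 (0.000216). None of the 31 or the 21 was called in DKO minus E2f8 KO. Only 1.73% of all genes were called higher and 0.647% lower there, so nothing is read from that count.

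Next came the lists of IRF and NF-kB factors, of interferon and receptor genes and of interferon-stimulated genes. Most of their called genes were lower in DKO minus WT and in E2f8 KO minus WT. Of 19 tested IRF and NF-kB factors, 2 rose and 11 fell in DKO minus WT (median -0.69) and 1 rose and 9 fell in E2f8 KO minus WT (median -0.53). The first count of 13 was 8 without both arrays with low Xist, and the second, of 10, was 6 without WT replicate 2. Among factors of immune cells, Irf8 fell by 2.60 ± 0.41 (SE; limma adjusted p = 0.000371), Irf4 fell by 3.10 ± 0.52 (0.000561) and Rel fell by 3.58 ± 0.57 (0.000414) in DKO minus WT. Irf3, of the same family, differed by 0.30 as given above. All 17 measured B cell markers were also called lower in this comparison (17.6% of all genes), with a median of -4.54. So were 17 of 19 macrophage and 7 of 9 dendritic cell markers, and the part of these cells in this list was not tested. Type I interferon genes had 9 members on the array, of which 6 lay below the filter level, and Ifnb1, the main product of the pathway, averaged 4.68 (WT), 4.94 (E2f8 KO), 4.82 (Rb KO) and 4.97 (DKO). Of 13 tested interferon and receptor genes, 1 rose and 5 fell in DKO minus WT. Socs3, an inhibitor of cytokine receptors, rose by 1.14 ± 0.16 (0.000165), and by 0.91 ± 0.16 (0.0103) in DKO minus E2f8 KO. The latter was not called without E2f8 KO replicate 1 (0.88) or 2 (0.90), or with the mean of its probe sets (0.47). The receptor chain Ifngr1 fell by 2.60 ± 0.40 (0.000337) and the kinase Jak1 fell by 1.14 ± 0.17 (0.000237).

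Of 48 tested interferon-stimulated genes, 3 rose and 24 fell in DKO minus WT (median -0.64), 2 rose and 19 fell in E2f8 KO minus WT (median -0.42), and 3 rose and 20 fell in DKO minus Rb KO (median -0.41). The count of 21 called in E2f8 KO minus WT was 10 without WT replicate 2 and 13 without E2f8 KO replicate 3, with or without DKO replicate 3. The chemokine Cxcl10 was among the few that rose, by 1.92 ± 0.18 (SE; limma adjusted p = 1.23e-05) in DKO minus WT, 1.17 ± 0.18 (0.00116) in E2f8 KO minus WT and 0.76 ± 0.18 (0.0435) in DKO minus E2f8 KO. Its signal was 7.41, 7.29 and 7.28 for WT, 8.31, 8.72 and 8.45 for E2f8 KO, 7.17, 7.15 and 6.77 for Rb KO, and 9.34, 9.37 and 9.03 for DKO, with no overlap of E2f8 KO or DKO with WT or Rb KO. The chemokine Ccl5, made by T cells among others, fell by 2.77 ± 0.29 (2.86e-05), Sp100, a nuclear body protein, fell by 2.15 ± 0.32 (0.000251), and Rsad2, which encodes the antiviral protein viperin, fell by 1.10 ± 0.10 (1.37e-05). Rsad2 was near the top of the scale in WT (13.91 ± 0.07, SD) and fell further in DKO than in E2f8 KO (-0.56 ± 0.10, 0.0125). Many of these genes are also made by B cells and macrophages, whose marker levels moved with the labels as given above, and the part of those cells in the list was not tested. In Rb KO minus WT and in the interaction no gene of the 7 lists was called. Over all genes the shares called higher and lower were 0% and 0.0077% in Rb KO minus WT. In the interaction they were 0.0539% and 0.0231%, so nothing is read from the lack of calls. In DKO minus E2f8 KO (1.73% and 0.647% of all genes) the interferon-stimulated genes called were Cxcl10, Rsad2 and Gbp7. That count of 3 was 0 without E2f8 KO replicate 1 or 2 or without DKO replicate 2 or 3, and 1 without E2f8 KO replicate 3, Rb KO replicate 2 or DKO replicate 1.

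**Figure D5:**
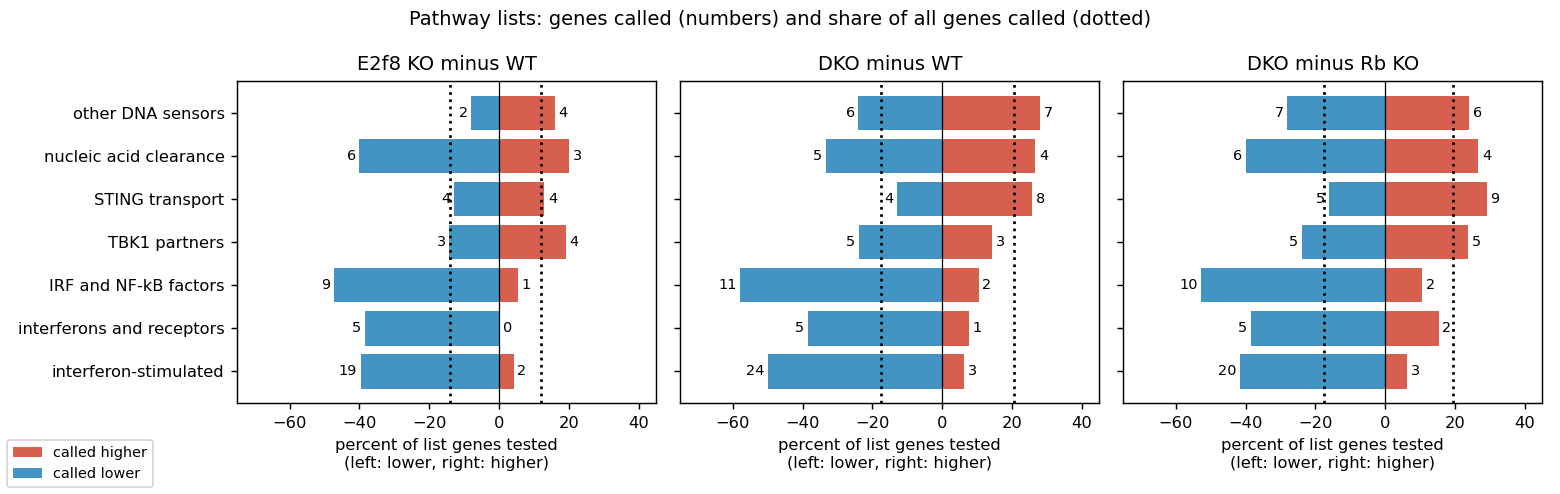
Percent of the tested genes of 7 pathway lists called higher (right) or lower (left) in 3 comparisons, with the number of genes at each bar and dotted lines at the percent of all genes called in that direction. In DKO minus WT every list but STING transport (4 of 31) extends past the dotted line on the lower side, furthest the IRF and NF-kB factors (11 of 19) and the interferon-stimulated genes (24 of 48). The DNA sensors (7 of 25), the nucleic acid clearance genes (4 of 15) and the STING transport genes (8 of 31) do so on the higher side.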

How the data were processed

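RNA of 12 sorted spleen cell samples was measured on single-channel Affymetrix arrays. Values were deposited on what, from their range of 1.0678 to 14.8423, is a log2 scale. MAS5 is listed, without a version, per the submitters' processing notes. The sources used here do not give the background correction or normalization, so their effect on low signals such as Cgas is unknown.

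The table holds 35557 probe sets: 21789 with 1 gene symbol, 1621 with several and 12147 with none. Symbols were updated by gene number (21698 matched). The lowest 40% of probe sets by mean over the 12 arrays (below 5.84) and those without exactly 1 symbol were removed, and the highest-mean probe set stood for a gene, which gave 12980 genes. Values were otherwise used as deposited. Differences were tested in limma 3.58.1 (R 4.3.3), two-sided, with all 12 arrays in 1 fit, 8 residual degrees of freedom and a variance trend, and p-values were adjusted by Benjamini-Hochberg in each of the 6 comparisons. The fit was tested on simulated data. P-values measure the spread between the arrays, which the labels call biological replicates, and 3 arrays a group limit the precision (median SE 0.184).

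Members and lists were chosen with earlier results of these data known. The genes named are the members, Rb1 and E2f8, up to 4 called genes with the smallest p per list and comparison, and the 5 most alike over the arrays. The text names fewer. The neighbours of the members on the chromosome are outside this rule. Replicate numbers did not pair the arrays: same-numbered arrays of different groups had correlations of deviations of -0.38 to 0.57 (median 0.07, 18 pairs). Alternatives were other filters, scalings, probe set rules, variance models, weights, thresholds and left-out arrays. A fit without both arrays with low Xist was chosen after the data were seen.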

Additional observations from a re-analysis of the deposited data

How the results depend on the processing

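Of 654 member values under alternatives, 652 moved by less than the spread between replicates. Many of them could not move, so this count is no measure of stability. Other filters, probe set rules, variance models and the replicate block leave the difference of a member between 2 groups unchanged. So does leaving out arrays of the other groups. The exceptions were both for Tbk1 under array weights, at -0.03 in E2f8 KO minus WT and 1.90 in DKO minus WT. A filter on the lowest 60% removed Cgas. Trex1 lost its call in 5 of 22 fits for E2f8 KO minus WT, 1 of 22 for DKO minus WT and 5 of 22 for DKO minus Rb KO.

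The number of genes called was 3388 in E2f8 KO minus WT, 1 in Rb KO minus WT, 4952 in DKO minus WT, 4819 in DKO minus Rb KO, 308 in DKO minus E2f8 KO and 10 in the interaction. With array weights it was 6649 in E2f8 KO minus WT, 101 in Rb KO minus WT, 2683 in DKO minus E2f8 KO and 59 in the interaction. With only the groups compared it was 0 in Rb KO minus WT and 1262 in DKO minus E2f8 KO. Without both arrays with low Xist it was 2095 in E2f8 KO minus WT and 53 in DKO minus E2f8 KO. Quantile normalization gave 14 in Rb KO minus WT, and the 60% filter 6 in the interaction. At an adjusted p under 0.01 it was 1410, 3255, 3082, 81 and 4 in E2f8 KO minus WT, DKO minus WT, DKO minus Rb KO, DKO minus E2f8 KO and the interaction. With a 2-fold change it was 1481, 2347, 2168 and 152 in the first 4 of these. Leaving out 1 array at a time gave 1531 (without WT replicate 2) to 4384 (without Rb KO replicate 1) in E2f8 KO minus WT, 1 to 140 in Rb KO minus WT, 79 (without E2f8 KO replicate 1) to 712 in DKO minus E2f8 KO and 2 (without WT replicate 1) to 49 in the interaction, each highest without Rb KO replicate 1. With the replicate number as a block, 3493, 1, 4938, 4750, 248 and 13 genes were called in the 6 comparisons. Only 1 of 12 arrays correlated best with its own number, which does not settle whether the numbers pair the arrays. The cause of these shifts was not tested. With 3 arrays a group, small differences such as those of Irf3 and Trex1 were near the limit of what the arrays resolve.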
